A study of Drosophila melanogaster with 12 samples.

Results

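The genes described here encode surface and secreted proteins with which Drosophila blood cells (hemocytes) bind and take up microbes, dead cells and modified lipoproteins: eater, NimC1, croquemort (crq), draper (drpr), Sr-CI, Sr-CII, Hemolectin (Hml), Tep2 and Tep4. They were selected by name, through the gene number at the start of the transcript identifier of each array probe, as a group of genes chosen with earlier results of these data known, and comprised 9 of 13127 genes and 17 of 32162 gene probes. Transcript levels were measured with single-colour (Cy3) Agilent arrays in S2R+ cells, a cultured line derived from Drosophila melanogaster embryos. The cells had been plated 24 h earlier and were then kept for 24 h at 11, 14, 25 or 30 °C. Each temperature was represented by 3 biological replicates with an array each, 12 arrays in all, and 25 °C is the usual culture temperature of these cells. According to the labels, more cells were plated for the lower temperatures (4500000 at 11 °C, 3500000 at 14 °C, 1700000 at 25 °C and 1500000 at 30 °C), so that plated number varied together with temperature. No gene was altered and no agent was added, and all values come from this 1 cell line. Slide 1 held replicate 1 of every temperature, slide 2 held replicates 2 and 3 of 11 and 14 °C, and slide 3 held replicates 2 and 3 of 25 and 30 °C. For replicates 2 and 3, slide and low or high temperature therefore cannot be told apart.

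Phagocytosis begins when receptors on the plasma membrane bind a particle directly or through a secreted protein that coats it. In Drosophila, Eater and NimC1 belong to the Nimrod family, whose extracellular parts carry rows of epidermal growth factor (EGF)-like repeats, and both act in the uptake of bacteria. Draper and the CD36 family member Croquemort act in the uptake of dying cells, and class C scavenger receptors such as Sr-CI bind bacteria and modified lipoproteins. Hemolectin is not a receptor but a large secreted clotting protein and a common marker of plasmatocytes, the phagocytic hemocytes. Thioester-containing proteins (Teps) are secreted relatives of vertebrate complement factors, and Tep2 has been linked to bacterial uptake by cultured Drosophila cells.

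On each array 43603 gene spots were measured, of which between 53.9% and 61.1% were well above background. Levels are given as normalized signals, that is, processed signals in intensity units after scaling of each array on its median. They are comparable between arrays but not between probes or genes, and the number of arrays limits their precision. Of 9 genes, 8 were tested, with 16 probes. The exception, the scavenger receptor gene Sr-CII (probe for CG8856-RA), had signals of 2.12, 4.64 and 3.27 at 11 °C, 2.94, 2.08 and 2.66 at 14 °C, 3.55, 3.85 and 2.93 at 25 °C, then 4.59, 3.27 and 2.71 at 30 °C. None of these was well above background, and no change is given for this gene. Changes are log2 differences with their standard errors (SE) from a limma fit, with p-values adjusted over all 15093 features tested, and a change was called at a fold of at least 2 and an adjusted p under 0.01. The arrays measure RNA of whole cultures, in which fewer cells with a transcript and less of it in each cell cannot be told apart.

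The genes of the selection changed in both directions. Between low temperature (11 and 14 °C together) and high temperature (25 and 30 °C together), 1 of the 8 tested genes rose at low temperature (Tep2) and 3 fell (eater, NimC1 and Hml). Among all features, 9.23% rose and 11.4% fell. NimC1, and 2 of the 3 Hml probes, passed the detection filter through their 30 °C arrays alone, the group in which they were high, so that nothing is read from these shares. The median change of the 8 genes was -0.56 and that of all features -0.17. The 6 low-temperature arrays lay entirely above the 6 high-temperature arrays for Tep2 and entirely below them for eater and crq (10.4% and 21.4% of all features). At 11 against 25 °C, 0 genes rose and 2 fell (8.73% and 11.2% of all features) by limma. At an unadjusted p under 0.05, 1 was higher (Tep2) and 4 lower (crq, eater, NimC1 and Sr-CI), with NimC1 near background at both temperatures. The share of all features past this looser threshold was not counted, and the percentages of called features are no measure for it. Nothing is therefore read from the number of genes at an unadjusted p under 0.05, here or for the lists below. The change of Tep2 had an adjusted p of 0.0014 and missed the call by its size alone. At 14 against 25 °C, 1 rose and 1 fell (5.32% and 4.96%), and at 30 against 25 °C, 2 rose and 1 fell (4.14% and 3.37%). These comparisons share the arrays at 25 °C. At 11 against 14 °C, 0 genes rose and 0 fell by limma (0.947% and 1.22%). In that contrast 3 were lower at an unadjusted p under 0.05 (eater, NimC1 and Sr-CI), again with NimC1 near background at both temperatures.

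**Figure D1:**
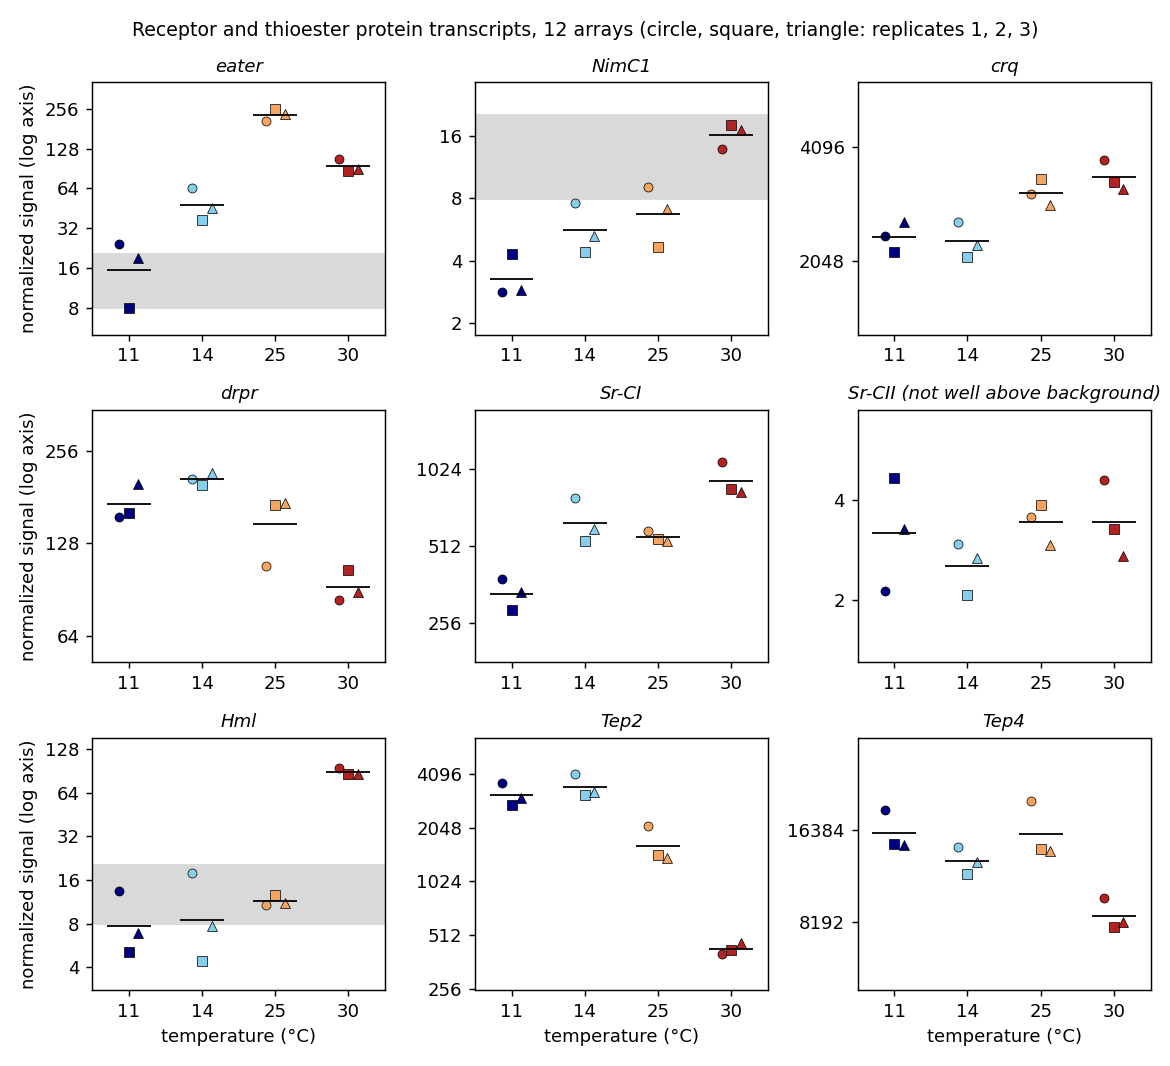
Normalized signal (log axis) of each gene on the 12 arrays against temperature in °C, with circles, squares and triangles for replicates 1, 2 and 3, bars for the geometric mean of 3 arrays and, where it falls inside the plotted range, a grey band for the lowest signals well above background on the arrays. The eater signals peak at 25 °C, those of Hml and NimC1 stand highest at 30 °C, and those of Tep2 lie between 2733 and 4058 at 11 and 14 °C and between 404 and 463 at 30 °C.

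The bacterial receptor gene eater (CG6124-RA) fell furthest among the 8. Its signals were 24.1, 7.97 and 19.0 at 11 °C, 64.7, 37.1 and 45.8 at 14 °C, 206, 255 and 235 at 25 °C, then 107, 87.3 and 89.9 at 30 °C. The temperatures did not overlap with each other, and the order of the levels was 11, 14, 30 and 25 °C from lowest to highest. The change at low against high temperature was -2.44 ± 0.25 (SE, n = 6 arrays each, limma adjusted p = 8.09e-06), a 5.44-fold difference. Relative to 25 °C, eater fell by 3.91 at 11 °C (adjusted p = 7.41e-06) and by 2.27 at 14 °C (adjusted p = 0.00066). At 11 °C, 2 of 3 arrays were well above background, so that the size of this change is less certain than its direction.

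The eater transcript was also lower on the warm side of 25 °C, where the change at 30 °C was -1.29 ± 0.35 (adjusted p = 0.0223), which was not called. Its interval of -2.06 to -0.52 excludes 0, and the change was called without replicate 2 of 11 °C (-1.29) and with slide as a block (-1.29, adjusted p = 0.00892). At 11 against 14 °C the change was -1.64 ± 0.35 (adjusted p = 0.014), not called, but with slide as a block it was (adjusted p = 0.00644). On slide 1 alone eater changed by -1.91 at low against high temperature, by -3.10 at 11 and by -1.67 at 14 °C relative to 25 °C. With slide as a block, the change at low against high temperature is estimated from slide 1 alone and is no separate check. With slide as a block the fall at 14 °C was no longer called (-1.74, adjusted p = 0.0105). After normexp background correction, which damps the changes of dim probes, the changes at low against high temperature and at 11 and 14 °C against 25 °C were -1.18, -1.84 and -1.32, all called.

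NimC1 (CG8942-RA), the other Nimrod receptor gene, was close to background. Its signals were 2.81, 4.32 and 2.88 at 11 °C, 7.56, 4.42 and 5.25 at 14 °C, 9.11, 4.66 and 7.13 at 25 °C, then 13.9, 18.2 and 17.1 at 30 °C. Only the 3 arrays at 30 °C were well above background. These 3 were higher than the other 9. In the limma fit its change was 1.28 ± 0.28 at 30 against 25 °C (adjusted p = 0.00716) and -1.29 ± 0.20 at low against high temperature (adjusted p = 0.000179), both called. These values are set against arrays near background, and NimC1 was among the tested genes only through its 30 °C arrays, so that a difference of this kind was favoured by the filter. Set against the lowest signal well above background on each 25 °C array, the level at 30 °C was at least 1.23-fold higher, and at low against high temperature no bound on the fold could be given.

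The NimC1 calls against 25 °C depended on single arrays, whereas that at low against high temperature was kept in all 12 fits without an array. The call at 30 °C was lost when any of 6 arrays was left out (replicate 3 of 14 °C, replicates 2 and 3 of 25 °C and each of 30 °C), with changes between 1.01 and 1.50 over the 12 fits. At 11 against 25 °C a change of -1.04 ± 0.28 was called (adjusted p = 0.00942), although neither temperature was well above background, so that no fold is given, and this call was lost without any of 9 arrays (all but replicate 2 of 11 °C, replicate 1 of 14 °C and replicate 2 of 25 °C), with changes between -1.30 and -0.82. With slide as a block none of the 3 calls was kept (adjusted p between 0.0111 and 0.069), and after normexp correction the change at 30 °C was 0.05.

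**Figure D2:**
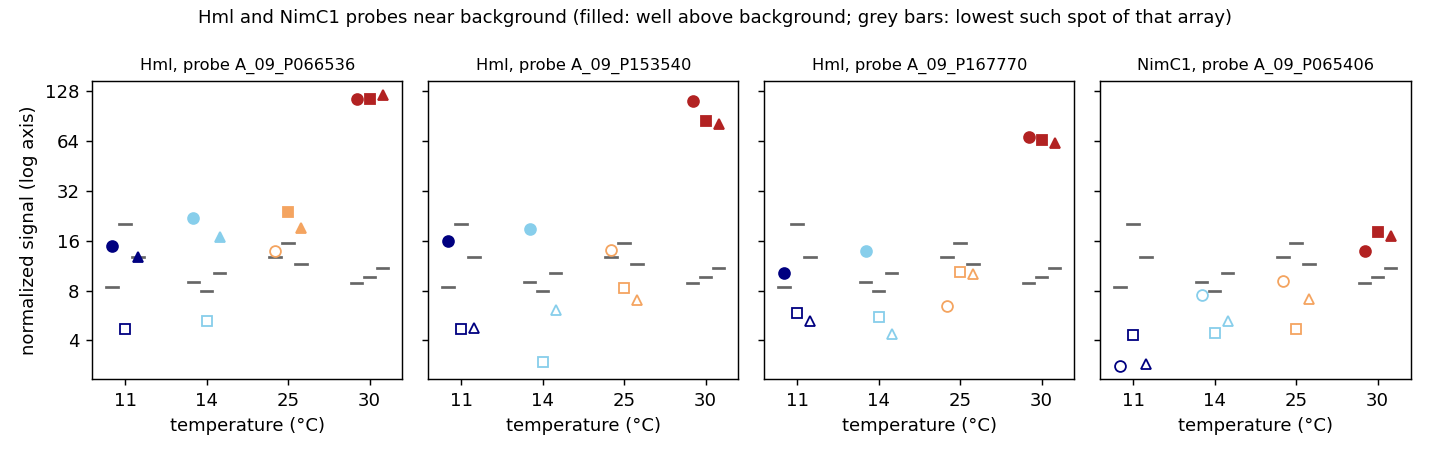
Normalized signal (log axis) of the 3 Hml probes and the NimC1 probe against temperature in °C, with filled symbols for arrays on which the probe was well above background and grey bars for the lowest signal well above background on the same array. All 3 arrays at 30 °C are filled for each probe, with signals between 62.7 and 122 for Hml, whereas NimC1 is filled at no other temperature.

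Hemolectin (Hml, CG7002-RA) rose at 30 °C. As the mean of 3 probes, its signals were 13.4, 5.07 and 6.84 at 11 °C, 17.8, 4.44 and 7.65 at 14 °C, 10.8, 12.7 and 11.1 at 25 °C, then 95.3, 85.9 and 85.3 at 30 °C. The 30 °C arrays were higher than every array of the other temperatures, which overlapped with each other. The change at 30 against 25 °C was 2.95 ± 0.45 (SE, n = 3 each, adjusted p = 0.000895) on the measured signals. This mean includes 2 probes that passed the filter through their 30 °C arrays alone, so that its size and p-value were favoured by the filter. The third probe, A_09_P066536, gave 2.67. The change of the mean was called under all 23 alternatives run, with values between 1.11 (normexp correction) and 3.19 (scaling on spike-in controls).

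The measured change was 2.67 for Hml probe A_09_P066536 (limma adjusted p = 0.00395), with 2 of 3 arrays at 25 °C well above background. It was 3.28 for A_09_P153540 and 2.89 for A_09_P167770. On none of the 25 °C arrays were the last 2 well above background, and against the lowest measurable signal there the level at 30 °C was at least 6.68-fold and at least 4.92-fold higher. These 2 probes passed the filter through their 30 °C arrays alone and are no separate support for the rise. Below 25 °C no change was called (-0.57 ± 0.45 at 11 °C with an interval of -1.56 to 0.43, and -0.44 ± 0.45 at 14 °C with an interval of -1.43 to 0.55). Replicate 1 of 11 and of 14 °C, on slide 1, were above both replicates of slide 2, and on slide 1 alone the changes relative to 25 °C were 0.32 at 11 °C and 0.73 at 14 °C. The call at low against high temperature (-1.98 ± 0.32, adjusted p = 0.000267) therefore rests on the 30 °C arrays. It was -1.05 with slide as a block, which for this contrast rests on slide 1 alone, still called. After normexp correction it was -0.68, under the 2-fold threshold.

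**Figure D3:**
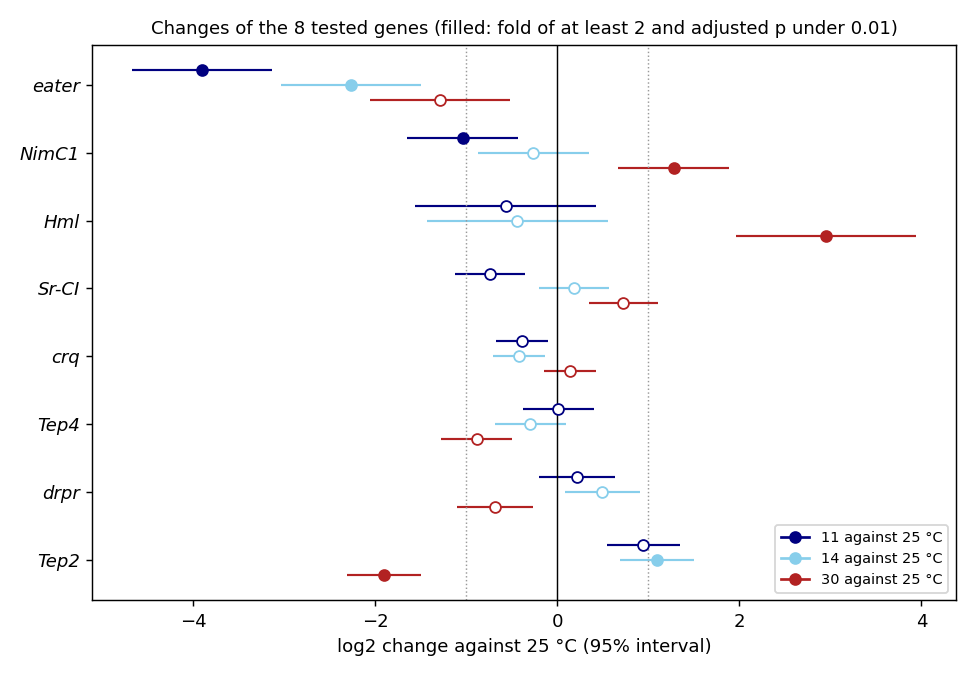
Log2 change of the 8 tested genes at 11, 14 and 30 °C against 25 °C, with 95% intervals of the limma fit and filled symbols for called changes. Tep2 has its positive changes at 11 and 14 °C and its negative change at 30 °C (-1.91), and eater is lower on both sides of 25 °C. The change of Hml is called at 30 °C alone (2.95), as a mean that includes 2 probes tested only through their 30 °C arrays.

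Among the receptors for dying cells, draper (drpr) differed by probe. Its signal as the mean of 3 probes was 156, 161 and 200 at 11 °C, 208, 199 and 218 at 14 °C, 108, 171 and 174 at 25 °C, then 83.7, 104 and 88.8 at 30 °C. The change at low against high temperature was 0.70 ± 0.13 (adjusted p = 0.000897), 1.62-fold and not called. Probe A_09_P079731, assigned to CG2086-RB, had signals of 726, 588 and 810 at 11 °C, 905, 732 and 850 at 14 °C, 371, 375 and 355 at 25 °C, then 191, 172 and 168 at 30 °C. All low-temperature arrays were above all high-temperature arrays, and the signals at 25 °C were above those at 30 °C. This probe rose by 1.58 ± 0.10 at low against high temperature (adjusted p = 1.93e-07, 2.99-fold), by 1.17 ± 0.14 at 14 against 25 °C, and fell at 30 against 25 °C (-1.05 ± 0.14). At 11 against 25 °C its change was 0.94 ± 0.14, under 2-fold.

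The other 2 draper probes moved less. Probe A_09_P188910, assigned to CG2086-RA, had signals of 151, 148 and 192 at 11 °C, 210, 170 and 208 at 14 °C, 136, 152 and 133 at 25 °C, then 127, 132 and 120 at 30 °C, and changed by 0.42 ± 0.10 at low against high temperature (adjusted p = 0.00294, 1.34-fold). Probe A_09_P195545, assigned to CG2086-RB like A_09_P079731, varied between replicates, with signals of 34.6, 48.2 and 51.7 at 11 °C, 47.1, 63.2 and 58.3 at 14 °C, 24.8, 88.2 and 111 at 25 °C, then 24.2, 50.3 and 34.5 at 30 °C, and its change was 0.09 ± 0.34 (interval -0.65 to 0.83). Its replicate 1 signals, on slide 1, were the lowest at each temperature.

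For all genes with several probes, 11 pairs of probes were compared by the difference of their log2 signals on each array. In 2 pairs the changes at low against high temperature differed, both with A_09_P079731 of draper. Its change was 1.16 above that of A_09_P188910 (two-sided exact permutation test, 6 against 6 arrays, p = 0.00216, the smallest this design allows, adjusted p = 0.0238), with the difference larger on every low-temperature array than on any high-temperature array. It was 1.49 above that of A_09_P195545 (exact p = 0.00866, adjusted p = 0.0476). The test took no account of slide. On slide 1 alone the changes were 1.61 for A_09_P079731, 0.44 for A_09_P188910 and 0.72 for A_09_P195545. The size of the difference from A_09_P195545 is therefore less certain than its direction. The array identifiers give no position of the probes within the gene, and which part of the transcripts each probe reads is not known here. On the level of single probes, 3 of 16 rose at low temperature (8.86% of all probes tested) and 5 fell (11.3%), 3 of which (that of NimC1 and 2 of Hml) were tested only through their high 30 °C arrays.

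**Figure D4:**
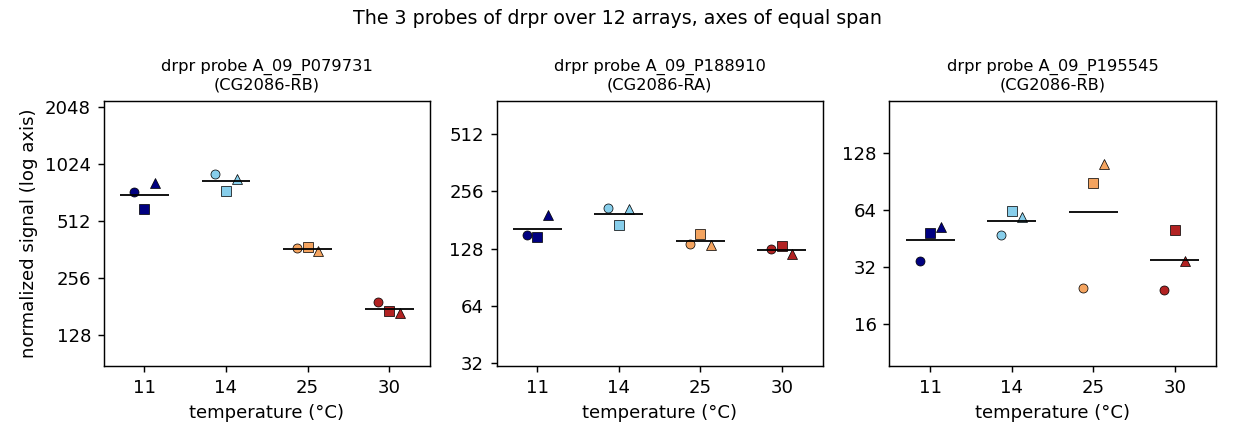
Normalized signal of the 3 draper probes on the 12 arrays (log axes of equal span) against temperature in °C, with circles, squares and triangles for replicates 1, 2 and 3 and bars for the geometric mean. Probe A_09_P079731 steps down between 14, 25 and 30 °C, A_09_P188910 stays between 120 and 210, and A_09_P195545 spreads between 24.8 and 111 at 25 °C.

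The croquemort gene (crq, CG4280-RA) had a small difference in the opposite direction. As the mean of 3 probes, its signals were 2386, 2166 and 2591 at 11 °C, 2606, 2101 and 2267 at 14 °C, 3076, 3377 and 2873 at 25 °C, then 3786, 3320 and 3171 at 30 °C. All low-temperature arrays were below all high-temperature arrays, whereas 11 and 14 °C overlapped, as did 25 and 30 °C. The change at low against high temperature was -0.47 ± 0.09 (adjusted p = 0.000959, 1.39-fold), under the 2-fold threshold. The 3 probes had changes of -0.45, -0.49 and -0.48 in this contrast, but not the same course. Probe A_09_P134660 had signals of 427, 457 and 440 at 11 °C, 326, 283 and 310 at 14 °C, 385, 415 and 437 at 25 °C, then 730, 693 and 508 at 30 °C. It was higher at 30 than at 25 °C by 0.63 ± 0.14 (adjusted p = 0.00903), where probes A_09_P031376 and A_09_P219285 differed by -0.11 and -0.10, and these 2 were lower at 11 than at 25 °C by 0.64 and 0.62 (adjusted p = 0.00654 and 0.00738), where A_09_P134660 differed by 0.10. These differences between probes at single temperatures were not tested.

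The scavenger receptor gene Sr-CI (CG4099-RA) was lowest at 11 °C and highest at 30 °C. Its signals, as the mean of 2 probes, were 381, 287 and 340 at 11 °C, 792, 536 and 597 at 14 °C, 587, 547 and 538 at 25 °C, then 1091, 855 and 834 at 30 °C. The 11 °C arrays were below all others and the 30 °C arrays above all others, while 14 and 25 °C overlapped. The changes were -0.74 ± 0.17 at 11 against 25 °C (adjusted p = 0.00444), 0.18 ± 0.17 at 14 against 25 °C (interval -0.20 to 0.56), 0.72 ± 0.17 at 30 against 25 °C (adjusted p = 0.0118) and -0.92 ± 0.17 at 11 against 14 °C (adjusted p = 0.00772). Each of these was under 2-fold, as was the change at low against high temperature (-0.64 ± 0.12, adjusted p = 0.000881). The 2 probes gave -0.62 and -0.66 in that contrast, and with scaling on spike-in controls the difference between 11 and 14 °C was called (-1.06).

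Tep2 (CG7052-RA) was the gene that rose at low temperature. Its signals, as the mean of 2 probes, were 3625, 2733 and 3012 at 11 °C, 4058, 3099 and 3224 at 14 °C, 2100, 1433 and 1387 at 25 °C, then 404, 424 and 463 at 30 °C. The low-temperature arrays overlapped with each other and were above all arrays at 25 °C, which in turn were above all at 30 °C. The change at low against high temperature was 1.97 ± 0.13 (adjusted p = 3.33e-07), a 3.93-fold difference, and the 2 probes gave 1.97 each. Over all alternatives it was called, with values between 1.91 and 2.19. Relative to 25 °C, Tep2 rose at 14 °C (1.09 ± 0.18, adjusted p = 0.00108) and fell at 30 °C (-1.91 ± 0.18, adjusted p = 4.7e-05, 3.75-fold). The rise at 14 °C was 0.97 without replicate 1 of 14 °C and 0.99 without replicate 3 of 25 °C, under 2-fold. At 11 °C the change was 0.95 ± 0.18 (adjusted p = 0.0014), under 2-fold, but above it without replicate 2 of 11 °C (1.04) or replicate 1 of 25 °C (1.14) and with slide as a block (1.03). At 11 against 14 °C the change was -0.15 ± 0.18, with an interval of -0.55 to 0.26.

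Tep4 (CG10363-RA), the other thioester protein gene of the selection, was lower at 30 °C. Its signals were 18992, 14740 and 14656 at 11 °C, 14406, 11789 and 12828 at 14 °C, 20311, 14196 and 13966 at 25 °C, then 9861, 7894 and 8190 at 30 °C. The 30 °C arrays were below all others, which overlapped, and replicate 1 on slide 1 was the highest at each temperature. The change at 30 against 25 °C was -0.89 ± 0.18 (adjusted p = 0.00448, 1.85-fold), under the 2-fold threshold, and that at low against high temperature was 0.30 ± 0.12 (adjusted p = 0.0573).

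Other genes of recognition and uptake were compared through lists. Of 23 other receptor genes, 12 were tested, and 3 of them rose and 0 fell at low against high temperature by limma (9.23% and 11.4% of all features), with PGRP-LA, pes and NimC4 also at an unadjusted p under 0.05, all 3 higher. The median change was 0.46, against -0.17 over all features. The 3 were scb (3.21 ± 0.20, adjusted p = 2.06e-07) and Itgbn (2.73 ± 0.10, adjusted p = 8.23e-09), which encode the integrin subunits alphaPS3 and betanu that act together in the uptake of bacteria and dying cells, and santa-maria (2.12 ± 0.19, adjusted p = 3.65e-06), a CD36 family member. Mean signals of scb were 291 at 11 °C, 286 at 14 °C, 61.3 at 25 °C and 15.8 at 30 °C. Those of Itgbn were 165 at 11 °C, 198 at 14 °C, 88.1 at 25 °C and 8.40 at 30 °C, and 10 of 12 arrays were well above background. Both integrin genes also fell at 30 against 25 °C (-1.95 ± 0.28 for scb and -3.39 ± 0.14 for Itgbn), together with Sr-CIV (-1.18 ± 0.22), which is named after its values had been seen, 3 of the 12 genes (3.37% of all features). The Itgbn mean at 30 °C lay below the lowest signal well above background on each of these arrays (8.86, 9.65 and 10.9). The sizes of the Itgbn changes that use them are therefore less certain than their direction. The CD36 family gene pes (0.84 ± 0.11, adjusted p = 6.16e-05) and the Nimrod receptor gene NimC4 (0.60 ± 0.25, adjusted p = 0.0546) were not called. Nor was PGRP-LA (0.61 ± 0.09, adjusted p = 0.000115), and pes and PGRP-LA missed the call by the 2-fold threshold alone. The remaining Nimrod genes NimA, NimB1 to NimB5, NimC2 and NimC3 did not pass the detection filter.

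Of 3 further Tep genes, 2 were tested. Tep1 rose at low against high temperature (1.99 ± 0.10, adjusted p = 4.22e-08), with mean signals of 161 at 11 °C, 85.6 at 14 °C, 30.2 at 25 °C and 29.0 at 30 °C. At 30 against 25 °C it changed by -0.05 ± 0.14, where Tep2 fell. Mcr, which encodes a related protein, changed by -0.03 ± 0.11.

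Genes that act after binding were compared in the same way. Of 23 genes of the engulfment machinery (such as adaptors, kinases and regulators of actin), 21 were tested and 0 were called in any of the 5 contrasts by limma (of all features, 9.23% rose and 11.4% fell at low against high temperature, but 0.947% and 1.22% at 11 against 14 °C), with a median change of -0.06 at low against high temperature, and between 3 and 10 per contrast had an unadjusted p under 0.05. The actin nucleator gene Arp3 changed by 0.41 ± 0.09 and the adaptor gene ced-6, which acts downstream of Draper, by -0.48 ± 0.11. At 11 against 25 °C, Ced-12, named after its values had been seen, changed by -0.9999 ± 0.12 (adjusted p = 5.7e-05), just under 2-fold. All 6 genes of this list at an unadjusted p under 0.05 in that contrast were lower. Of 17 genes of phagosome maturation, 17 were tested and 0 called in any contrast, with a median change of -0.18, and between 1 and 11 per contrast had an unadjusted p under 0.05. The lysosomal protease genes CtsL1 and cathD changed by 0.21 ± 0.10 and -0.44 ± 0.08.

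**Figure D5:**
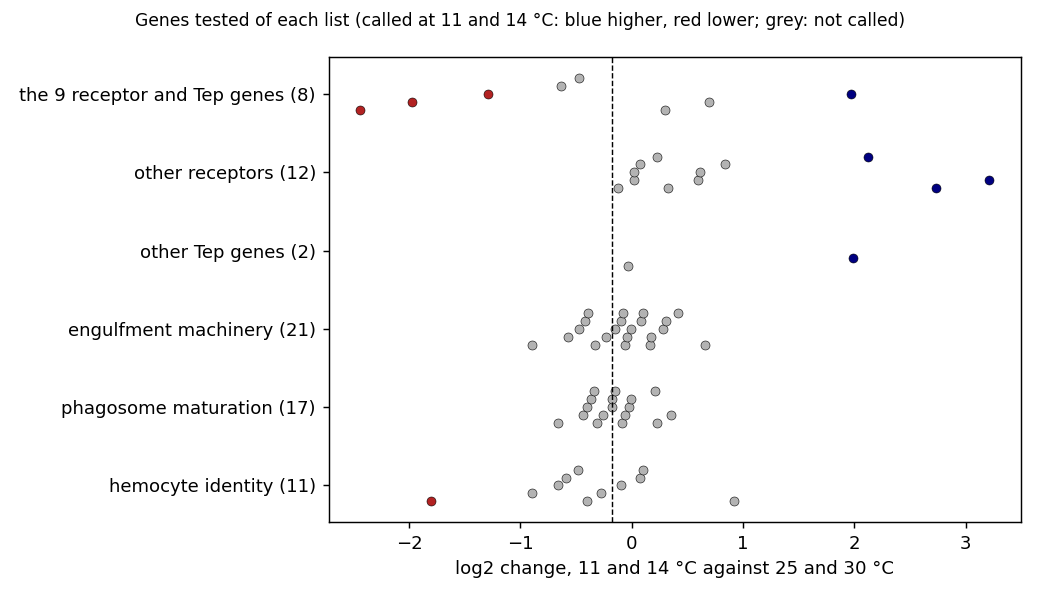
Log2 change at 11 and 14 °C against 25 and 30 °C for each tested gene of 6 lists (a point per gene, the number tested in parentheses), with the median of all features as a dashed line. Called genes are blue (higher at low temperature) or red (lower) and lie outside the range of -1 to 1, and no gene of the engulfment machinery or of phagosome maturation does so.

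The labelled cell line was compared with cell type markers. Of 14 genes of hemocyte identity, 11 were tested, and the hemocyte GATA factor gene srp, its partner gene ush, Pxn and He were well above background on all 12 arrays, whereas gcm and gcm2 were not on any. At low against high temperature 0 of the 11 rose by limma and 1 fell (the Wnt receptor gene fz, -1.81 ± 0.14), with a median change of -0.40. At an unadjusted p under 0.05, 1 was higher (Ppn) and 6 were lower. The genes Glt and Pvr with the highest mean signals of the others changed by 0.10 ± 0.16 and -0.48 ± 0.13. At 11 against 25 °C, where eater fell most, 1 of the 11 rose (Ppn, 1.37 ± 0.21) and 3 fell (He, -1.63 ± 0.20, fz, -1.41 ± 0.20, and Pvr, -1.13 ± 0.18), against 8.73% and 11.2% of all features, and at 11 against 14 °C He fell (-1.20 ± 0.20), Ppn and He being named after their values had been seen. At 30 against 25 °C, where Hml rose, 4 of the 11 rose and 1 fell (4.14% and 3.37% of all features). Besides fz (1.41 ± 0.20), these were the peroxidase gene Pxn (1.40 ± 0.27), the collagen IV genes Col4a1 (2.12 ± 0.29) and vkg (2.58 ± 0.18), all of which plasmatocytes make, and, falling, He (-1.50 ± 0.20), and they are named after their values had been seen. In the same contrast Pvr changed by -0.61 ± 0.18 and srp by -0.36 ± 0.16, neither called, and the neuron gene brp rose (1.04 ± 0.20). The summed signal of the 11 genes lay between 45100 and 73390 on low-temperature arrays and between 60220 and 75570 on high-temperature arrays. As signals are not comparable between genes, this sum and those below mostly follow their brightest genes, here Glt (mean 32820). Among the lists for other cells, the low-temperature arrays summed to between 6865 and 7624 and the high-temperature arrays to between 4094 and 9380 for 4 of 5 lamellocyte genes, with 1 gene risen (ItgaPS4, 1.99 ± 0.29) and atilla not well above background on any array, and to between 1165 and 1737 and between 971 and 1125 for 4 of 5 crystal cell genes, with 0 called by limma (2 at an unadjusted p under 0.05) and lz at background on every array. Of the 5 neuron genes 1 fell (brp, -1.65 ± 0.14), of 4 germline genes 1 rose (osk, 1.02 ± 0.12), and of 5 muscle genes and 1 fat body gene tested 0 were called by limma at low against high temperature (3 of them, all muscle genes, at an unadjusted p under 0.05). On low-temperature and high-temperature arrays the neuron genes summed to between 3691 and 7501 and between 4176 and 8061. The germline genes summed to between 4704 and 7261 and between 3541 and 7262. For the muscle genes the sums were between 215 and 345 and between 135 and 205, and the fat body gene had between 8.35 and 30.4 and between 3.66 and 376. The neuron genes elav, nSyb, Syt1 and para and the germline genes bam, aub and osk were well above background on all 12 arrays. Detection of a marker therefore does not by itself name the cell type here. The part of these lists in the changes of the selected genes was not tested.

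For each called gene, the 3 named features with the most similar course over the 12 arrays were sought by Pearson's r of log2 signals, as a description, since the points share 4 temperatures and 3 slides. The course of eater was most like those of Pomp (r = 0.974), CG30059 (0.973) and Pen (0.971), an importin alpha gene. Pen had mean signals of 7028 at 11 °C, 10180 at 14 °C, 16780 at 25 °C and 12320 at 30 °C, again with the peak at 25 °C, but its change at low against high temperature was -0.77, against -2.44 for eater. For NimC1 the closest were ORMDL (0.946), CG1607 (0.943) and CG16723 (0.941). Its probe was well above background at 30 °C alone, so that its course below 30 °C is not known and these values describe little. For Hml, with 2 of 3 probes near background on most arrays below 30 °C, the closest were the ubiquitin-conjugating enzyme gene Ubc84D (0.981), rols (0.974) and Gal (0.971), a beta-galactosidase gene. For Tep2 they were CG12880 (0.994), the tetraspanin gene Tsp42Ed (0.993) and betaTub97EF (0.991), which encodes a beta-tubulin and had mean signals of 18290 at 11 °C, 22940 at 14 °C, 7366 at 25 °C and 556 at 30 °C.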

How the data were processed

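Spots were quantified in Agilent Feature Extraction 10.7.3.1, per the file headers. Scanner files were deposited with processed spot intensity after background subtraction, with a small surrogate for spots near background, not normalized between arrays, so that changes of dim probes are less reliable. The table of log2 values deposited by the authors matched the log2 processed signal of each array after a constant shift (100% of probes within 0.01) and was used as an alternative. The authors processed the arrays with GeneSpring, by median scaling to the 25 °C arrays, kept probes that were present in at least 2 of 3 replicates, and called a fold of at least 2 at a false discovery rate under 0.01.

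Here, outlier and control spots were left out, log2 signals were averaged per probe and scaled on the median to the 25 °C arrays. Probes were kept with at least 50% of spots well above background on at least 2 arrays of a temperature and values on at least 10 arrays, and probes of a gene were averaged. Of 32162 gene probes, 19626 (61.0%) matched a gene in a table from RefSeq (assembly Release 6 plus ISO1 MT), and 15093 features (9222 genes) were tested. The array names no genome build, so no coordinates are given. Group means were fitted with limma 3.58.1 in R 4.3.3 over all 12 arrays, with Benjamini-Hochberg adjustment over all features. Pairs of probes were compared with an exact permutation test. The scripts were tested on simulated data. Where every array of a side left a probe near background, a fold is a lower bound, with each array's lowest signal of a spot well above background as the floor, which was chosen after seeing the data. The normexp alternative (offset 50) used median spot signals, with the background of spots flagged as background outliers replaced by the median background of the array, chosen after seeing the data.

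The genes and lists were chosen with earlier results of these data known. All 9 genes are named, of each other list the genes called at low against high temperature and up to 2 others with the highest mean signal, and for each called gene the 3 most similar named features. Other settings were the scaling (75th percentile, quantile, probes well above background on all arrays, spike-in controls), normexp, the authors' table, no filter or a mean signal over 100, the brightest probe of a gene, slide or replicate number as a block, only the groups compared, and leaving out each array.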

Additional observations from a re-analysis of the deposited data

How the results depend on the processing

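At low against high temperature, the number of the 8 genes that rose (1) became 2 with a mean signal over 100 and with the brightest probe only, in both cases with draper added, and the number that fell (3) became 1 after normexp correction and 0 with a mean signal over 100, which removes eater, NimC1 and Hml, and 2 with slide as a block, where NimC1 was not called. The number of falling probes (5) became 1 after normexp correction and 2 with slide as a block. At 11 against 25 °C, 1 gene (Tep2) rose in place of 0 under 75th percentile scaling, quantile normalization, scaling on probes that were well above background throughout or on spike-in controls, normexp correction and slide as a block. The number that fell there (2) was 1 under these same 6 settings, without the filter, with the replicate block and with only the groups compared, and 0 with a mean signal over 100. At 14 against 25 °C, 2 rose with the brightest probe only, and 0 fell with a mean signal over 100 and with slide as a block. At 30 against 25 °C, the number that rose (2) was 1 under quantile normalization, normexp correction, no filter, slide as a block, the replicate block and only the groups compared, and 0 with a mean signal over 100, and the number that fell (1) was 2 with the brightest probe only, slide as a block and only the groups compared. At 11 against 14 °C, 1 gene fell in place of 0 under 75th percentile scaling, scaling on probes well above background and slide as a block, and 2 did on spike-in controls. With each array left out in turn, counts ranged from 0 to 1 rising and 1 to 2 falling at 11 against 25 °C, from 0 to 1 rising at 14 against 25 °C and from 1 to 2 rising and 1 to 2 falling at 30 against 25 °C. The other counts were the same without any array. The comparison of probe pairs was not repeated with arrays left out.

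No change that was called had its direction reversed by an alternative. The uncalled changes that did were those of NimC1 at 14 against 25 °C (0.14 on spike-in controls), crq at 30 against 25 °C (-0.11, brightest probe) and at 11 against 14 °C (-0.11 on spike-in controls, -0.15 with normexp, -0.26 with the brightest probe, -0.034 to 0.12 without single arrays), Hml at 11 and 14 against 25 °C with slide as a block (0.36 and 0.49), at 14 against 25 °C (-0.98 to 0.025) and 11 against 14 °C (-0.59 to 0.41) without single arrays, Tep4 at 11 against 25 °C (-0.066 with slide as a block, -0.11 to 0.19 without single arrays) and at 14 against 25 °C (0.11 on spike-in controls), and drpr at 11 against 25 °C (-0.0088 to 0.34 without single arrays). The cause of these shifts was not tested.

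Scaling moved the median change of all features at low against high temperature to 0.02 on the 75th percentile and to 0.04 on spike-in controls, against -0.17, with 1732 features risen and 1181 fallen on the 75th percentile, against 1393 and 1714. After normexp correction 670 rose and 624 fell. Same-numbered arrays deviated together in part (correlations of deviations 0.30 to 0.57 for replicate 1, which shares slide 1, 0.10 to 0.30 for replicate 2 and 0.09 to 0.32 for replicate 3). Of 12 arrays, 9 were closest to their own number. The numbers were not taken as pairs in the main fit, and a replicate block was run as an alternative. With the replicate block, 1399 features rose and 1738 fell, the 2 NimC1 calls against 25 °C were lost, and no other call of the 8 genes changed.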
